A study of Mus musculus with 7 samples.

Results

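HDAC1 ChIP-seq peaks were examined at 10 immediate early genes: Fos, Fosb, Jun, Junb, Jund, Egr1, Ier2, Klf4, Atf3 and Btg2. A peak was assigned to a gene when it overlapped the gene body (the whole GENCODE gene record, mm10) or the 5 kb on either side of it. Of the 15347 peaks in the list, 24 met this rule, and each of the 10 genes had at least 1. The samples were 4 HDAC1 ChIPs and 3 inputs of sheared chromatin without antibody, all from Swiss Webster mouse embryos at E11.5 with 40 to 44 somites. Forelimb and hindlimb buds from 3 litters were pooled for a sample, so the cells were a mixture of all limb bud cell types and no treatment or genotype was compared. The labels state that the limb buds were dissociated with Liberase, a collagenase blend, at 37 degrees for 6 min, and the study's methods place this step before fixation. Peaks had been called on the samples together with a false discovery rate below 0.05 and the list gives coordinates only. A peak therefore has a position, a length and a rank, which is its row number in the list (1 is the first row). The list gives no read count, height, replicate error or per-sample value. The study's legend mentions a fold change and a false discovery rate for each peak, which were not used here. The depth behind a peak is unknown here, and no value below could be tested against replicates.

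Immediate early genes are transcribed within minutes of a growth factor, stress or calcium signal, without new protein synthesis, because the factors that switch them on are already bound or waiting in the cell. SRF with its partners of the ELK family acts through the CArG box, and CREB acts through the cAMP response element (CRE). Their products are mostly transcription factors: FOS and JUN proteins pair through leucine zippers to form AP-1, which binds its own short element. HDAC1 is the catalytic subunit of several corepressor complexes and removes acetyl groups from histone tails. It has no DNA-binding domain of its own and is brought to chromatin by other proteins. In other systems it has been found at active as well as silent promoters.

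The bases just upstream of the start, where these elements usually lie, are shown for 4 of the genes so that the peak positions can be read against them. The first 3 stretches lie entirely under HDAC1 peaks and the Btg2 stretch lies entirely outside them. They are the 250 bases before the RefSeq start (GRCm38.p6), written 5′ to 3′ on the strand of the gene. Capitals mark exact matches, on either strand, to 5 motifs. The CRE was searched as TGACGTCA. The element bound by AP-1 was searched as TGANTCA, where N is any base. The element of the zinc finger activator SP1, common in promoters rich in CpG, was searched as GGGCGG, and neighbouring matches of it can share bases. The core promoter element that TBP binds was searched as TATAAA, and the CArG box by its usual consensus.
Fos upstream bases, chr12:85473640-85473889 (+ strand): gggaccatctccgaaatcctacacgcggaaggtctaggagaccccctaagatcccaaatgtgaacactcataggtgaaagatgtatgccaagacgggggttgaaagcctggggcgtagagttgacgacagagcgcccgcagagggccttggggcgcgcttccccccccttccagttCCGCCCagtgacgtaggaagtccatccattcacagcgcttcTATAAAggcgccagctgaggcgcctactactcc
Jun upstream bases, chr4:95052223-95052472 (- strand): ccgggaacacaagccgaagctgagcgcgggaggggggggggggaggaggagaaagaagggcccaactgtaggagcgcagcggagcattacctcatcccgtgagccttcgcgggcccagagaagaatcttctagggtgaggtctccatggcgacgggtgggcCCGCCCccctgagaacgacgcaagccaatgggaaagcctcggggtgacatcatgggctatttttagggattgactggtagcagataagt
Klf4 upstream bases, chr4:55532476-55532725 (- strand): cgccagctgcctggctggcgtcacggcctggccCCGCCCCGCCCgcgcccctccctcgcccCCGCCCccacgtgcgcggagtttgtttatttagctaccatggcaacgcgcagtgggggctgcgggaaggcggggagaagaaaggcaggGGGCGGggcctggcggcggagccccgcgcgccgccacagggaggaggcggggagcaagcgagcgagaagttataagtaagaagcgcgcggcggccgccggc
Btg2 upstream bases, chr1:134079156-134079405 (- strand): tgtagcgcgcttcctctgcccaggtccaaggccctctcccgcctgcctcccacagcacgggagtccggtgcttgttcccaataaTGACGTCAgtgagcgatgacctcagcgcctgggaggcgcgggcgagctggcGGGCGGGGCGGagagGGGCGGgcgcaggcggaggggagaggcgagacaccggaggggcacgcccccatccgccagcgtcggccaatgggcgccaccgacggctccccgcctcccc

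The Fos stretch held a TATA box from -33 to -28 and an SP1 match from -74 to -69, counted from the start of transcription. The Klf4 stretch held 4 SP1 matches and the Jun stretch held 1. The Btg2 stretch, which no peak covered, held an exact CRE from -166 to -159, together with 3 SP1 matches. None of the other members with an entry in the RefSeq promoter table held an exact CRE in these 250 bases, which for Jund lie before a start 1210 bp upstream of the GENCODE one. Of the 8 members with an entry, 6 had an SP1 match and 1 had a TATA box, whereas none had an AP-1 or CArG match in these 250 bases. At Junb a TATA match lay at -30 to -25 bp from the GENCODE start. It fell outside the 250 bases because the RefSeq start lies 30 bp further upstream. Among all 27025 RefSeq promoters of this length, 32.9% held an SP1 match, 13% a TATA box, 6.87% an AP-1 match, 1.62% a CRE and 1.4% a CArG box. A match is a description of the letters and was not tested as a binding site. Elements that differ from the searched letters were not counted, so a missing match does not show that an element is absent.

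All 10 genes had a peak in the window of gene body and 5 kb flanks, and all 10 had a peak in a promoter window. The promoter window took in the 2 kb before and the 1 kb after the start of any protein-coding transcript. Of all 21851 protein-coding genes, 50.4% had a peak in the body or flanks (95% Wilson interval over genes 49.7 to 51%) and 44.1% had one in a promoter window (interval 43.4 to 44.7%). A peak lay directly over a coding transcript start at 9 of the 10 members, beside 32.8% of coding genes (interval 32.2 to 33.4%), and Egr1 was the exception. Members were short, with a median body of 4093 bp beside 17380 bp for coding genes. Of the 6087 coding genes no longer than Fosb, the second longest member, 33.4% had a peak in the body or flanks and 27.4% had one in a promoter window.

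The number of peaks per gene ranged from 1 to 4. Fos, Fosb, Egr1 and Atf3 had 1 peak, Btg2 had 2, Jund and Klf4 had 3, and Jun, Junb and Ier2 had 4. Thus 6 of the 10 members had 2 or more peaks, beside 19.3% of coding genes, and 3 of the 10 had 4 or more, beside 2.81% of coding genes. Where at least 50% of a peak had to lie in the window, 23 peaks were left, Ier2 had 3, and 2 of the 10 had 4 or more, beside 2.7% of coding genes. By position, 9 of the 24 peaks covered a coding start, 6 lay upstream of it, 7 lay over the gene record downstream of the start (3 of these inside the promoter window) and 2 lay beyond the 3′ end, both across the outer edge of the flank. Of these last, the Junb peak had 966 of its 1100 bp inside the 5 kb flank and the Ier2 peak 669 of its 1600 bp. Of the 20200 bp under these peaks, 48.6% lay outside coding transcripts of the gene, 22.7% in untranslated exon sequence, 20.7% in coding sequence and 7.95% in introns.

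**Figure D1:**
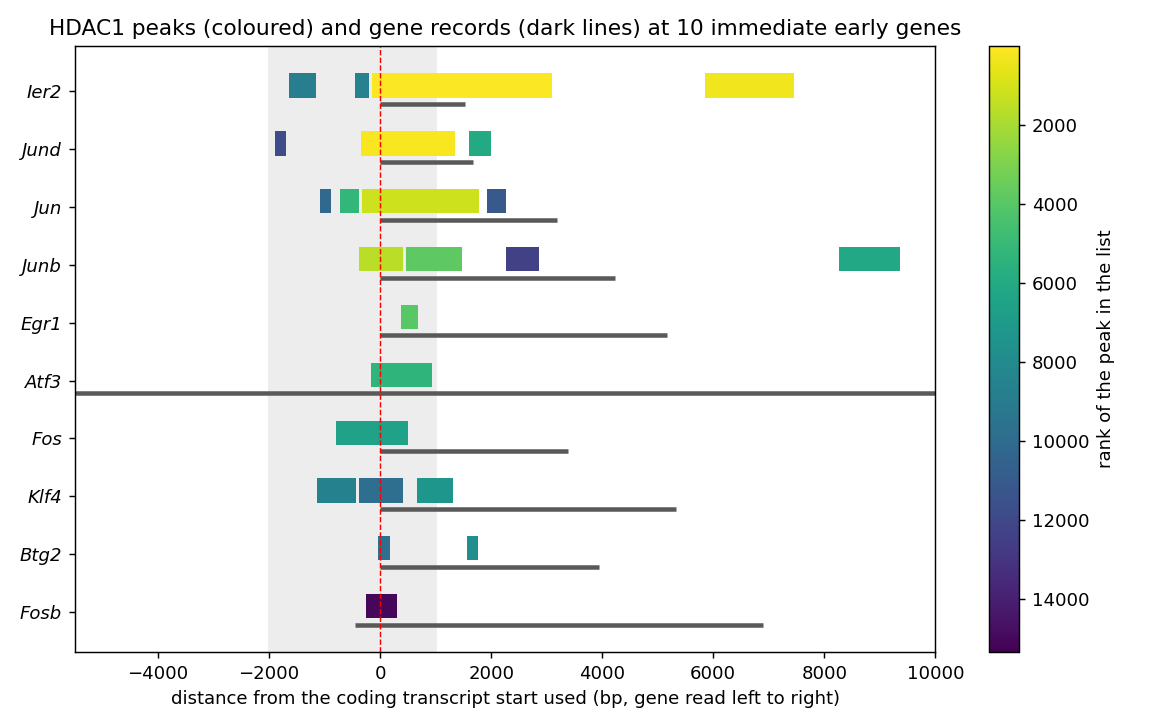
Position of the 24 HDAC1 peaks (coloured bars, colour giving the rank in the list) along the 10 genes, in bp from the coding transcript start nearest the gene's best-ranked promoter peak (red dashed line), with every gene read from left to right, the gene record as a dark line and the promoter window shaded. The line for Atf3 is cut at the plot's edges because its record is 47744 bp long. Bars cross or touch the start at 9 genes, the Egr1 bar lies wholly downstream of it, and Ier2, Jun, Junb, Klf4 and Jund carry runs of neighbouring peaks.

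Fos, the prototype immediate early gene and a subunit of AP-1 (chr12:85473890-85477273, + strand, 4 exons), had 1 peak, at chr12:85473100-85474399. This peak was 1300 bp long and ran from 790 bp upstream to 509 bp downstream of the start. It covered the whole proximal promoter, the first exon and part of the first intron, and left the rest of the gene free, so that 15.1% of the body and 12.4% of the coding sequence lay under it. Its length exceeded that of 87.2% of the 10757 promoter peaks in the list, but its rank was 6511, near the middle. Of the 624 peaks in the list within 100 bp of its length, 92.6% ranked ahead of it. The nearest peaks beyond the 5 kb flanks lay 17941 bp upstream (500 bp long, rank 1550) and 8627 bp past the 3′ end (350 bp long, rank 7719), and the coding start nearest to both was that of Fos itself. The upstream peak therefore ranked ahead of the promoter peak.

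Fosb, a second FOS subunit, had the last-ranked peak of the group. The gene (chr7:19302696-19310051, - strand) had 3 annotated coding starts. The peak, at chr7:19309300-19309849, was 550 bp long and ranked 15080 of 15347. It began 202 bp downstream of the 5′ end of the gene record and covered only an inner coding start, from -249 to 300 bp around it. Of its bases 418 were in untranslated exon sequence and 126 in coding sequence. Of 3396 peaks within 100 bp of its length, 99.2% ranked ahead of it. The 250 bases before the RefSeq start held no base under a peak, in contrast to Fos, where all 250 were covered.

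Jun, the founding JUN subunit, is encoded by 1 exon (chr4:95049034-95052222, - strand) and had 4 peaks that followed each other with gaps of 150, 50 and 150 bp. The main peak, chr4:95050450-95052549, was 2100 bp long with rank 1152, and ran from -327 to 1772 bp, across the start, the 5′ untranslated region and most of the coding sequence. Next to it upstream were a 350 bp peak (rank 5248, -727 to -378 bp) and a 200 bp peak (rank 10217, -1077 to -878 bp), and inside the gene a 350 bp peak (rank 11120, 1923 to 2272 bp). Joined across gaps of up to 1000 bp, they made a stretch of 3350 bp, of which 3000 bp was covered, and 97.2% of the joined promoter stretches in the list were shorter. In all 85% of the coding sequence lay under peaks. Beyond the flanks the next peaks were 265378 bp upstream and 434235 bp downstream, so the cluster stood alone in its region. The antisense record Junos starts inside the main peak, within the Jun gene, and runs across the Jun start and both upstream peaks.

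Junb, a JUN subunit that often opposes JUN in growth control (chr8:84974484-84978718, - strand), also had 4 peaks. The start was covered by an 800 bp peak, chr8:84978300-84979099, with rank 1615 (-381 to 418 bp). After a gap of 50 bp came a 1000 bp peak with rank 3779 over the coding sequence (469 to 1468 bp), and 95.2% of the coding sequence lay under this pair. A 600 bp peak with rank 12379 lay 2269 to 2868 bp downstream of the start, past the end of the coding transcript and inside the span of a noncoding one. The fourth peak, 1100 bp long with rank 6146, lay 8269 to 9368 bp downstream and held the 5′ ends of the neighbouring genes Rnaseh2a and Prdx2. It met the assignment rule and lay in the promoter windows of those neighbours.

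Jund, the most constitutively expressed JUN subunit (chr8:70698949-70700616, + strand), had the second best-ranked promoter peak of the group. Its main peak, chr8:70698600-70700299, was 1700 bp long, ranked 155 and ran from -349 to 1350 bp. It covered 100% of the 1023 bp coding sequence, and 98.7% of promoter peaks in the list ranked behind it. Of 321 peaks within 100 bp of its length, 2.8% ranked ahead of it, which is the reverse of Fos. A 400 bp peak with rank 6005 covered the 3′ end of the gene, and a 200 bp peak with rank 11845 lay -1899 to -1700 bp upstream. RefSeq places the start of Jund 1210 bp further upstream, and with that start the main peak lay inside the gene and the start was not covered. The antisense record Gm11175 lay entirely under the main peak.

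The outermost upstream peaks of Jun and Jund, each 200 bp long, are shown whole (GRCm38.p6) because they are the shortest of the upstream peaks. Capitals mark the same motifs as above.
Jun upstream peak, chr4:95053100-95053299 (- strand): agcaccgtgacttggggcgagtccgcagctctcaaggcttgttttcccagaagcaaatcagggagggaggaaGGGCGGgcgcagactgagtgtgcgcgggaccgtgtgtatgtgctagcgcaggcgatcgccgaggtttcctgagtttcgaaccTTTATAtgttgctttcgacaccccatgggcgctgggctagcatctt
Jund upstream peak, chr8:70697050-70697249 (+ strand): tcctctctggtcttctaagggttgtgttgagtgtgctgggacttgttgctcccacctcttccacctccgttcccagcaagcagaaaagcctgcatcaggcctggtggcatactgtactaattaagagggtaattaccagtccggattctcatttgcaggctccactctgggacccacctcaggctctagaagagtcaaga

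The Jun element had 58.5% GC and a ratio of observed to expected CpG of 0.9, and held an SP1 match and, on the opposite strand, a TATA match. The Jund element had 52% GC and a CpG ratio of 0.149, the lowest of the 24 peaks, and held none of the 5 motifs. Among the 1499 peaks of 200 bp in the list, 21.6% held an SP1 match and 6.47% a TATA match.

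Atf3, a stress-induced ATF family member that represses transcription as a homodimer (chr1:191170296-191218039, - strand), was the longest member, with an outer and an inner coding start. Its only peak, chr1:191182400-191183499, was 1100 bp long with rank 5361 and covered the inner start, from -159 to 940 bp. This start lay within 7 bp of the RefSeq start. The outer start, at the 5′ end of the record, had no peak in its promoter window, and the peak lay 34540 to 35639 bp downstream of it. With 47744 bp in the record, 2.3% of the body was covered and none of the coding sequence. Batf3, another AP-1 family gene, carried the next peak beyond the flank on the downstream side, 71497 bp away.

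Egr1, a zinc finger factor induced by SRF and ELK proteins (chr18:34859823-34864984, + strand), had the fewest bases under peaks, with a lone 300 bp peak at chr18:34860200-34860499 with rank 3971. It lay 377 to 676 bp downstream of the outer coding start, all of it in untranslated exon sequence of that transcript. Counted from the inner coding start, which RefSeq uses and which lies 1384 bp downstream of the outer one, the peak lay upstream. No annotated start was covered by either source. The peak was short but well ranked for its length, since 2.94% of 6322 peaks within 100 bp of its length ranked ahead of it. Its CpG ratio was 0.358.

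Klf4, a zinc finger factor of the Kruppel-like family used in reprogramming to pluripotency (chr4:55527143-55532466, - strand, 5 exons), had 3 peaks of 700, 800 and 650 bp separated by gaps of 50 and 250 bp. They lay at -1133 to -434 bp (rank 8651), at -383 to 416 bp over the start (rank 9885) and at 667 to 1316 bp, mostly in an intron (rank 7261). Joined, they spanned 2450 bp, longer than 94.2% of joined promoter stretches, and 61.1% of the promoter window was covered, almost as much as at Jun. The best-ranked of the 3 was thus at 7261, and 62.9 to 90.9% of peaks of like length ranked ahead of them. The peak over the start had the highest GC content of the 24 peaks, 72.4%, and 12 SP1 matches. No further peak lay within 118634 bp upstream or 176294 bp downstream.

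Ier2, which encodes a nuclear protein of the immediate early response (chr8:84661331-84662852, - strand, 1 exon), had the best-ranked and longest peak of the group. The peak chr8:84659750-84662999 was 3250 bp long, ranked 78 and ran from -147 to 3102 bp, so that it covered the entire gene and ran on past its 3′ end. It was longer than 98.9% of promoter peaks, and 99.4% of them ranked behind it. A 250 bp peak (rank 8541, -447 to -198 bp) and a 500 bp peak (rank 8907, -1647 to -1148 bp) lay upstream. A further peak of 1600 bp with rank 317 lay 5853 to 7452 bp downstream of the start, with no other coding start nearer than 30863 bp and no gene record under it. Its CpG ratio was 0.377, beside 0.689 for the peak over the gene.

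Btg2, an antiproliferative gene and p53 target (chr1:134075170-134079120, - strand, 2 exons), had 2 peaks of 200 bp each. The first, chr1:134078950-134079149 (rank 9821), covered the GENCODE start from -29 to 170 bp but stopped short of the RefSeq start, 35 bp further upstream. The second, chr1:134077350-134077549 (rank 7753), lay 1571 to 1770 bp downstream with 178 bp in the coding sequence of the last exon, and it ranked ahead of the promoter peak. Only 6.66% of the promoter window was covered, the lowest value of the group. Only 1.86% of the promoter peaks in the list were shorter than these, but many tied with them, since 1499 peaks of the whole list were 200 bp long.

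**Figure D2:**
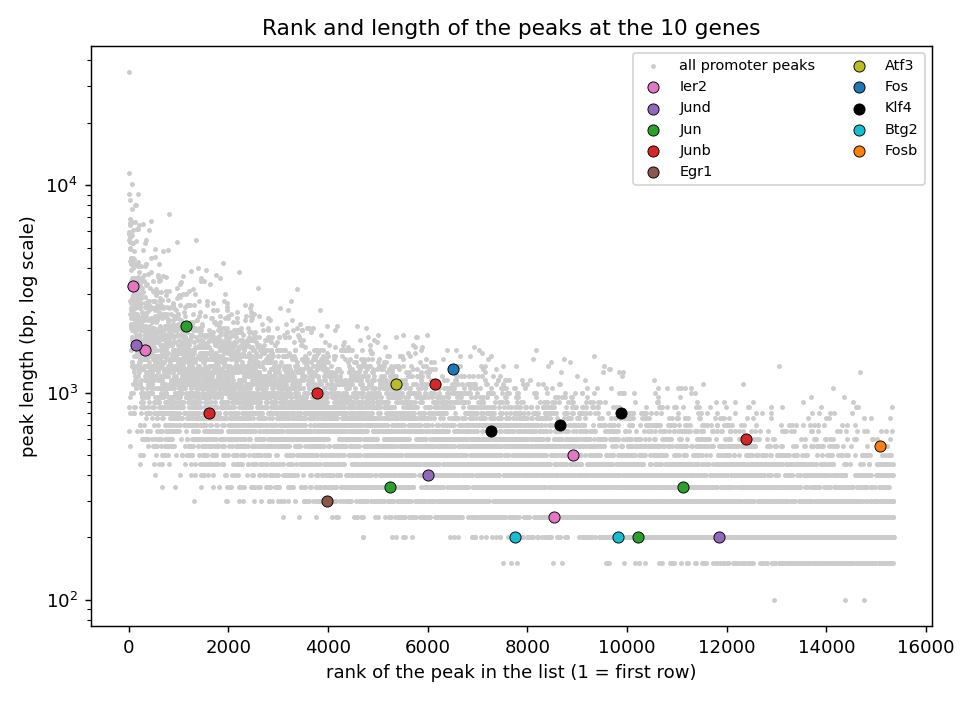
Rank (row number, 1 is first) and length (bp, log scale) of the 24 peaks at the 10 genes (large points, coloured by gene) over all promoter peaks in the list (small grey points). Ier2 and Jund lie at the upper left with ranks of 78 and 155, whereas Fos, Klf4 and Fosb lie along the upper edge of the cloud, with lengths that are large for their ranks.

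Ranks spread over nearly the whole list. The 24 peaks ranked from 78 to 15080 with a median of 6886, and 13 of them were among the first 7673. The 18 promoter peaks of the members had a median rank of 6886 and a median length of 675 bp, beside 6369 and 550 bp for the 10757 promoter peaks in the list. The first 1534 ranks, 10% of the list, held 3 of the 18 promoter peaks (16.7%), beside 12.9% of promoter peaks in the list. Taking the best-ranked promoter peak of each gene, the median was 4666 for the 10 members and 5174.5 for the 9630 coding genes with a promoter peak, and 5 of 10 members were ahead of the latter value. The ranks of the members' promoter peaks were thus near those of promoter peaks in general.

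The members encoded by 1 exon stood apart from those with several exons in rank and in cover of the gene body. This split was made after the values were seen and was not tested. Jun, Junb, Jund and Ier2 had 15 peaks in all, 3 to 4 each, best promoter ranks between 78 and 1615, and 47.7 to 100% of the body under peaks. Fos, Fosb, Egr1, Klf4, Atf3 and Btg2 had 9 peaks, 1 to 3 each, best promoter ranks between 3971 and 15080, and 2.3 to 20% of the body under peaks. Neither measure overlapped between the sets, whereas the number of peaks did, and so did cover of the promoter window, which was 61.1% at Klf4 and 44.4% at Junb. Because the split was chosen from these values, the separation is not a result about exon number. The 1-exon members were also short, from 1522 to 4235 bp. Those with several exons ran from 3384 to 47744 bp, so body lengths overlapped between the sets. Among all coding genes with a promoter peak, the median best rank was 4871 for 326 genes of 1 exon and 5181 for 9304 genes with several, and 17.2% and 14.2% had 3 or more peaks. The best promoter peak was within the first 1534 ranks for 20.6% of the genes of 1 exon and 15.5% of those with several. Of 1350 such genes with several exons and no longer than Fosb, the median best rank was 5632, 15.3% were within the first 1534 ranks and 17.3% had 3 or more peaks. For cover of the gene body, no such comparison of coding genes by exon number was made. Whether the difference in body cover goes with exon number or with the short bodies was not tested.

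At 3 members, Jun, Jund and Ier2, peaks covered over 50% of the gene body, beside 1.08% of all coding genes and 3.66% of coding genes no longer than Fosb. Both shares include genes without any peak, and 27.4% of the genes no longer than Fosb had a promoter peak. The median share of the body covered was 17.6% for the members, 1.87% for coding genes with a promoter peak and 14% for those among them no longer than Fosb. The share for the members was thus close to that of other short genes with a promoter peak. Cover of the promoter window ran from 6.66% at Btg2 and 10% at Egr1 to 62.6% at Jun and 63.2% at Ier2.

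**Figure D3:**
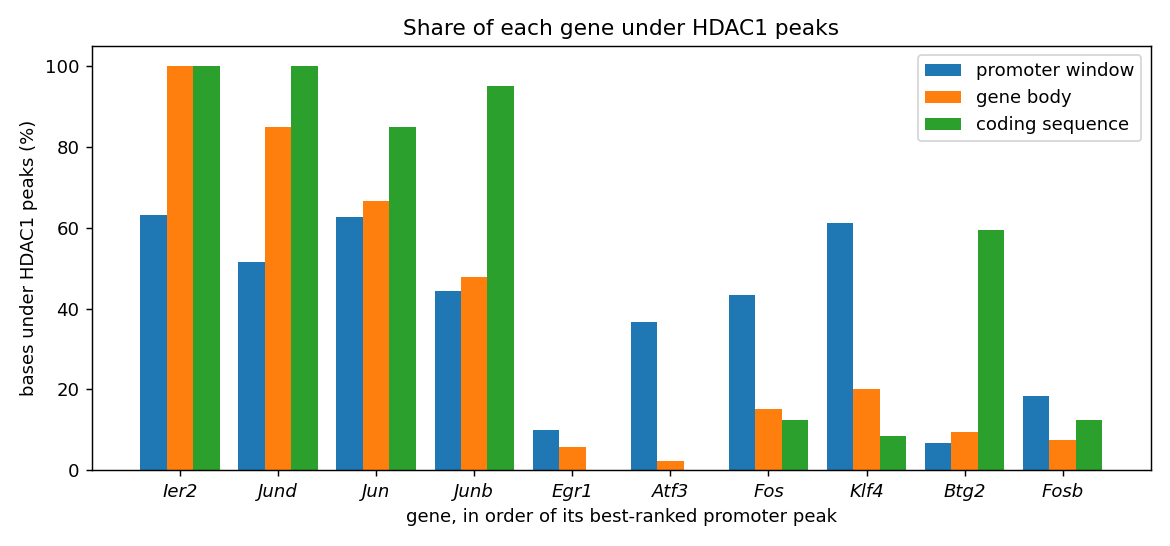
Share (%) of the 3 kb promoter window, of the gene body and of the coding sequence under HDAC1 peaks for each gene, in order of its best-ranked promoter peak. The bars for body and coding sequence are high at Ier2, Jund, Jun and Junb (47.7 to 100% of the body) and low at the other members except for the coding sequence of Btg2 (59.5%), whereas Klf4 has 61.1% of its promoter window covered and 8.35% of its coding sequence.

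Several peaks of the same gene lay close together. Of the 14 gaps between neighbouring peaks of a member, 6 were no longer than 200 bp, at Jun, Junb, Ier2 and Klf4, and the smallest was 50 bp, the step in which the list gives coordinates. Of the 5841 gaps between neighbouring peaks in the same window around any coding gene, 29.2% were that short, beside 42.9% for the members. Several of the separate peaks can thus be counted as 1 broader region, and with peaks up to 1000 bp apart joined the 24 peaks became 14 stretches at the same 10 genes.

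The same motifs, as the same exact letters, were also searched for in the peaks themselves. Of the 24 member peaks, 19 held an SP1 match, 6 a TATA match, 4 an AP-1 match, 2 a CRE and 1 a CArG box. Of all promoter peaks in the list, 75.3% held an SP1 match, 8.12% a TATA match, 6.93% an AP-1 match, 2.53% a CRE and 2.08% a CArG box, but these peaks were of other lengths. Per kb of peak, members had 2.62 SP1, 0.297 TATA, 0.248 AP-1, 0.099 CRE and 0.0495 CArG matches, beside 3.92, 0.146, 0.103, 0.0348 and 0.03 in all promoter peaks. The member peaks include 6 outside promoter windows. In all peaks of the list the values per kb were 3.45, 0.214, 0.119, 0.0315 and 0.0353, and 61.4% held an SP1 match and 10.5% a TATA match. For SP1 the share of peaks (79.2%) was thus above that of all promoter peaks while the number per kb was below it. The other values rest on few matches, 6 for the TATA box, 5 for AP-1, 2 for the CRE and 1 for the CArG box. The exact CREs lay in the main peaks of Jund (-214 to -207 bp) and Ier2 (-45 to -38 bp). Short stretches are shown next for the CArG, AP-1 and CRE matches that lay under peaks upstream of the start, except the CRE of Ier2, on the strand of the gene with the match in capitals.
Fos CArG box match, chr12:85473561-85473610 (+ strand): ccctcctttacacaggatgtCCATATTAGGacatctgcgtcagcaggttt
Fos AP-1 match, chr12:85473408-85473454 (+ strand): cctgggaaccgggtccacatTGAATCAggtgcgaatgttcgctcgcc
Klf4 AP-1 match, chr4:55532976-55533022 (- strand): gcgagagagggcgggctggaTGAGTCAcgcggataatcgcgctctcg
Klf4 AP-1 match, chr4:55533348-55533394 (- strand): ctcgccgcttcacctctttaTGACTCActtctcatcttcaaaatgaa
Jund CRE match, chr8:70698725-70698752 (+ strand): cccacccccaTGACGTCAacccacaatg

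The CArG box of Fos lay at -309 to -300 bp from the start, well inside the peak, whose upstream edge was at -790 bp. It is the known binding site of SRF in the serum response element. The AP-1 match of Fos lay at -462 to -456 bp. Both AP-1 matches of Klf4, at -536 to -530 and -908 to -902 bp, lay in the upstream peak and not in the peak over the start. The remaining AP-1 matches lay downstream of the start, in the peaks of Atf3 (549 to 555 bp) and Ier2 (1202 to 1208 bp).

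The member peaks had a median GC content of 59.5% (48 to 72.4%), lower than the 65.4% of all promoter peaks and the 62.9% of all peaks, and a median CpG ratio of 0.77, beside 0.817 and 0.758. The CpG ratio was below 0.4 in 4 peaks, the outer Jund peak, the inner Btg2 peak, the Egr1 peak and the downstream Ier2 peak, and none of these covered an annotated start.

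Other genes of the same response were compared by their counts. Of 36 other immediate early genes, 31 had a peak in the body or flanks, 29 had a promoter peak and 21 had a covered coding start, with a median best promoter rank of 2226. Klf2, Arc, Ccn2, Gadd45b and Ptgs2 had no peak. The best-ranked promoter peaks in this list were those of Npas4 (rank 19), a neuronal activity factor, Ier5l (rank 33), a paralog of Ier5, and Zfp36l1 (rank 77), which promotes decay of AU-rich mRNAs. In this list 3 genes had 4 or more peaks and 6 had over 50% of the body under peaks, beside 2.81% and 1.08% of all coding genes. As background for each comparison list, 50.4% of all coding genes had a peak, 44.1% a promoter peak and 32.8% a covered start.

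Of 19 other genes of the AP-1, ATF and BTG families, all had a peak, 16 had a promoter peak and 16 had a covered start, with a median best rank of 2836. Tob2 (rank 482), an antiproliferative BTG relative, Maf (rank 907), a large MAF factor, and Atf6 (rank 1378), an endoplasmic reticulum stress sensor, had the best-ranked promoter peaks. Of 14 regulators of immediate early gene induction, 10 had a peak, 9 had a promoter peak and 6 had a covered start, with a median best rank of 5600. Srf (rank 1254), and its partners Elk3 (rank 1930) and Elk4 (rank 1980) led this list, while Elk1, Mrtfb, Mapk3 and Rps6ka1, the last 2 being kinases of the ERK pathway, had no peak. The corresponding value for the 10 members, 4666, lay between those of the family list and the regulators.

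**Figure D4:**
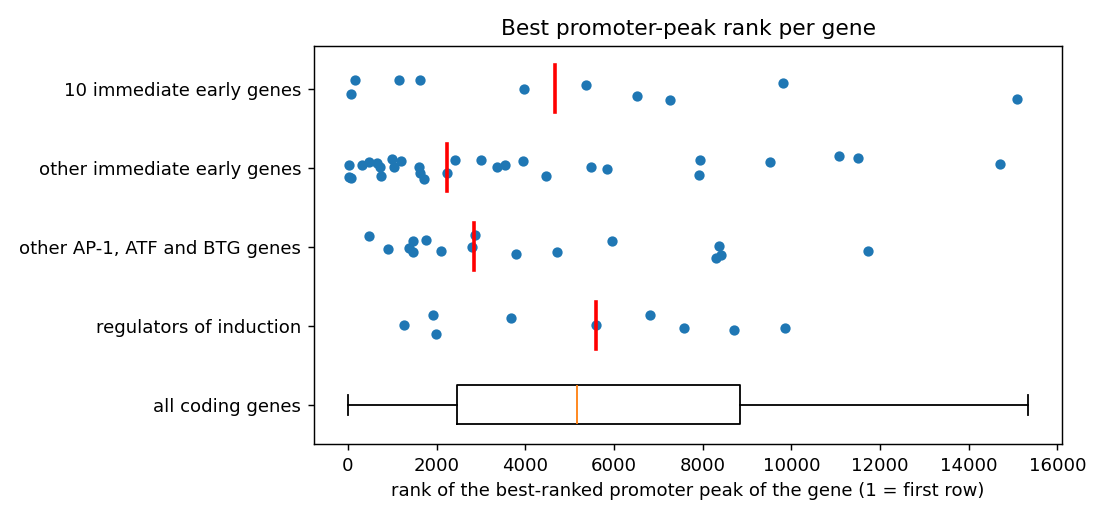
Rank of the best-ranked promoter peak per gene (1 is the first row of the list) for the 10 immediate early genes, the 3 comparison lists and all coding genes with a promoter peak. Points are genes and red lines their medians (4666, 2226, 2836 and 5600), and the box for all coding genes gives the quartiles (2470.25 and 8846.75) around the median of 5174.5, with whiskers to the extremes within 1.5 box lengths. Each list spans much of the range of the box.

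The Ier2 peak of rank 317 and the fourth Junb peak were the ones that crossed the 5 kb limit. The next peaks beyond the flanks lay 7032 bp upstream (rank 2200) and 7035 bp downstream (rank 11921) of Junb, 8627 bp downstream of Fos, 8950 bp upstream of Jund (rank 9763) and 9649 bp upstream of Fosb (rank 6867). Within 50 kb of the gene record there were between 1 peak, at Atf3, and 10 peaks, at Ier2.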

How the data were processed

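HDAC1 ChIP-seq was performed with the antibody Abcam ab7028 on 4 samples, with 3 input samples. The submitters' processing notes name Bowtie2 2.2.5 and mm10. The authors called peaks with CisGenome 2.1.0 at a false discovery rate below 0.05, and the deposited table holds 1 pooled list of peak coordinates with no read counts, so the depth per peak is unknown and replicates could not be compared. Coordinates were read as 1-based with both ends included, as given, and row order was taken as rank. The study describes its HDAC1 peak coordinates as ordered by rank, and the quantity behind the rank is not given in the sources used here.

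Peaks were intersected with the GENCODE M21 basic annotation and the GRCm38.p6 sequence. The members, gene lists and settings were chosen with earlier results of these data known. All members and all their peaks were described. Of the 3 comparison lists, the genes without a peak and the 3 with the best-ranked promoter peak were named. No tests were made, and shares of coding genes carry 95% Wilson intervals over genes, which are not replicates. Alternatives covered the flank, the promoter window, the starts used, the top of the list, joined peaks and the background genes. RefSeq promoter sequences matched 8 of the 10 members, with no entry for Ier2 and Egr1. Overlap calls were tested on simulated data and matched a base-by-base count in 2000 of 2000 windows. Python 3.11.15, numpy 2.4.6, pandas 2.3.3 and scipy 1.17.1 were used.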

Additional observations from a re-analysis of the deposited data

How the results depend on the processing

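With the flank at 0 bp the 10 genes kept a peak each and 16 peaks in all, and with 10 kb they had 29, while 45% and 53.7% of coding genes had a peak. In the best-ranked 50% of the list, 13 peaks remained at 8 members, all but Fosb and Btg2, with 6 starts covered, and coding genes fell to 35% with a peak, 30% with a promoter peak and 24.4% with a covered start; the median length of member promoter peaks was then 1050 bp and their median rank 3875. Joining peaks within 1000 bp left 14 stretches with a median promoter length of 1300 bp, and 33.9% of coding genes then had a covered start. A promoter window of 500 bp or 5 kb on each side kept all 10 members with a promoter peak and gave 42.7% and 46.2% of coding genes. With only the 5′ end of the gene record as the start, 9 members and 41.6% of coding genes had a promoter peak, since Atf3 lost its own. Coding genes no longer than the longest member gave 44.6%, 38.6% and 28.3% with a peak, a promoter peak and a covered start, and genes of every biotype 27.6%, 22% and 15.2%. Settings added after the data were seen were the 5′ end of the record for covered starts (7 members, 26.7% of coding genes), RefSeq starts (6 members) and coding genes no longer than the second longest member (33.4%, 27.4% and 18.8%). No share of coding genes was computed for RefSeq starts, so the count of 6 members has no background beside it. Requiring 50% of a peak in the window left 23 peaks and, in a setting added later, 2 members with 4 or more. Of 52 alternative values, 28 stayed within the limits set, which were 1.5 times the main value for counts and medians and the Wilson interval for shares.

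No paired analysis was possible because the list pools all samples and no result comes from a test. Leaving out a replicate was not possible either. The list gives no depth, and binding below the peak threshold is not seen in it. Which start of Fosb, Jund, Egr1, Atf3 and Btg2 is used in limb buds was not measured, and the counts of covered starts rest on the annotation.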
